A study of Mus musculus with 2 samples.

Results

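The genes described here handle glucocorticoids or respond to them in the adrenal glands of newborn mice. They are 10 of the 43346 Ensembl genes quantified, chosen by symbol for their known roles and found by Ensembl identifier, and all 10 were present in both tables. Hsd11b1, Hsd11b2 and H6pd set the local balance of active and inactive hormone, Srd5a1 and Abcb1b remove steroid by reduction and export, Fkbp5 feeds back on the receptor, and Tsc22d3, Sgk1, Klf9 and Zbtb16 are target genes. The material was total RNA from pups of strain B6NCrl at postnatal day 0, untreated as far as the labels say, with 1 library from the 2 adrenals of pup 2 and 1 library from the 2 adrenals of pup 1. Both pups carry the same number for the pregnant animal and the same donor entry, their sex was not collected, and both libraries form 1 group, so the data give levels in the newborn gland and the distance between the pups, with no contrast of conditions and no p-value.

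Glucocorticoids such as corticosterone are made in the adrenal cortex and act through the glucocorticoid receptor, a transcription factor held ready for its ligand by heat shock protein chaperones. Inside cells, the enzyme of Hsd11b1 regenerates active hormone from its inert keto form with NADPH that the enzyme of H6pd makes in the endoplasmic reticulum, while the enzyme of Hsd11b2 does the opposite and so protects the mineralocorticoid receptor. The activated receptor switches on a set of genes in many tissues, among them Fkbp5, whose product lowers the receptor's affinity for the hormone.

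The library of pup 2 held 40799478 estimated counts on genes and that of pup 1 41504343. Defining genes of the labelled tissue were examined at 1 TPM, a unit of length-corrected share of all RNA. In both pups 6 of 6 markers of the adrenal cortex and 6 of 6 of chromaffin cells reached it. So did 8 of 8 liver markers, 6 of 6 endothelial markers and 32.9% of all Ensembl genes. This level alone therefore does not identify the tissue. Summed TPM was 17013 in pup 2 and 6395 in pup 1 for the cortex markers, and 3489 and 1468 for the chromaffin markers. RNA known from other tissues was also present, with a summed TPM of 2266 in pup 2 and 2940 in pup 1 over 8 liver markers, 11.3 and 2.67 over 8 kidney markers (none at TPM 1 in both pups), and 4.95 and 123 over 4 markers of stomach and oesophagus. It was 226 in pup 2 and 55.8 in pup 1 over 4 skeletal muscle markers (4 of 4 over 2-fold higher in pup 2, median log2 ratio 1.78), and 32.6 and 5.40 over 4 fat markers (3 of 4 higher in pup 2, median log2 ratio 1.19). No list had a gene at 0 in both pups. In such bulk samples, more cells of a type and more RNA per cell cannot be told apart. Differences between the pups are given as the log2 ratio of pup 2 over pup 1 from counts scaled by TMM, a method that centres the bulk of genes, with 95% intervals that cover counting error only. Scaling by the spike-ins instead shifts the median of all genes to 2.56 on this scale, so each direction below is relative to the bulk of genes.

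All 10 genes were expressed in both pups. Each reached TPM 1 in both libraries, against 32.9% of all Ensembl genes. Zbtb16 did so narrowly in pup 1, at 1.03 TPM with a quantifier interval from 0.884 to 1.16. The median of the 10 was 20.6 TPM in pup 2, against 16.1 in pup 1. The order of the mean levels was Tsc22d3, Abcb1b, Sgk1, Fkbp5, H6pd, Hsd11b1, Klf9, Srd5a1, Hsd11b2 and Zbtb16. Tsc22d3 lay above 96.1% of all Ensembl genes by mean TPM and Zbtb16 above 69.1%. The ranges of the pups overlapped for 6 of the 9 neighbouring pairs in this order. The 3 breaks fell between Sgk1 and Fkbp5, between Klf9 and Srd5a1, and between Srd5a1 and Hsd11b2. By these ranges there was an upper group of 3 genes, a middle group of 4, then Srd5a1, then a low pair. The ranges leave out the quantifier's intervals. With those, Klf9 in pup 1 (13.6 to 14.9 TPM) overlapped Srd5a1 in pup 2 (11.3 to 14.1 TPM).

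**Figure D1:**
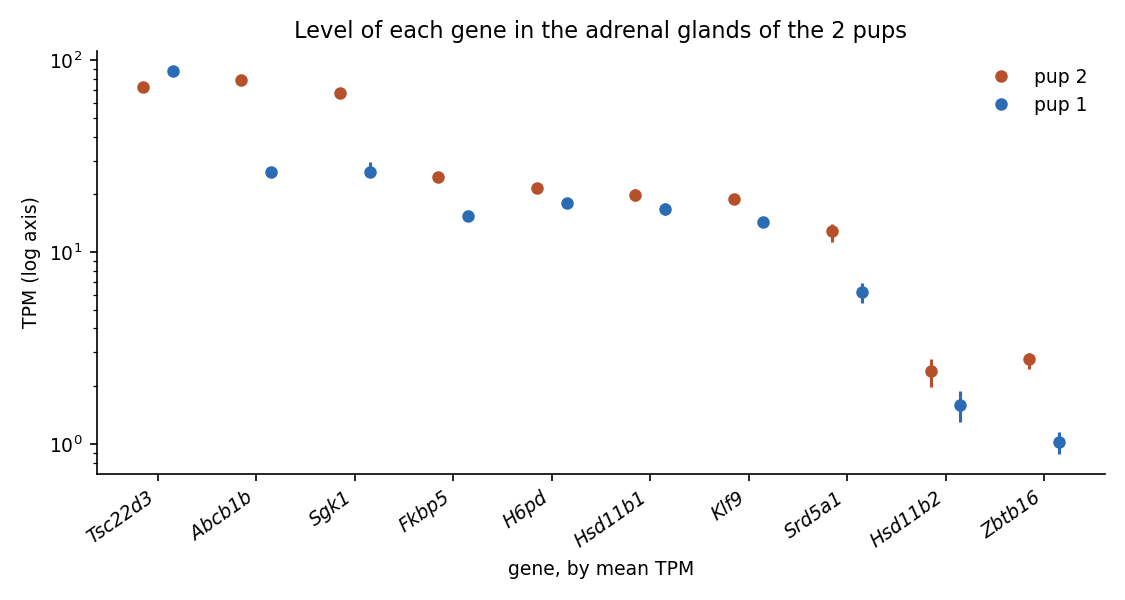
TPM on a log axis for the 10 genes in order of mean TPM, with the point of pup 2 left of that of pup 1 and bars for the interval of TPM given by the quantifier. Tsc22d3, Abcb1b and Sgk1 lead, and Hsd11b2 and Zbtb16 lie lowest, between 1.03 and 2.76 TPM.

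Among the genes of hormone balance, RNA of the reactivating enzyme and of its partner stood at nearly equal levels and that of the inactivating enzyme far lower. Hsd11b1 (ENSMUSG00000016194.10, mm10 chromosome 1, 193221634 to 193264075, minus strand) had 19.8 TPM in pup 2, against 16.8 in pup 1, a mean of 18.3 ± 2.12 TPM (SD, n = 2). H6pd (ENSMUSG00000028980.10, chromosome 4, 149979475 to 150009023, minus strand) had 21.5 TPM in pup 2, against 18.0 in pup 1, a mean of 19.7 ± 2.45 TPM (SD, n = 2). In each pup H6pd RNA stood slightly above Hsd11b1 RNA, with a TPM ratio of 1.09 in pup 2 and 1.07 in pup 1. The quantifier's intervals of these genes overlapped in each pup, so their order is not resolved. In pup 2 they were 20.4 to 22.3 TPM for H6pd and 18.4 to 21.2 TPM for Hsd11b1. In pup 1 they were 17.2 to 18.8 TPM for H6pd and 15.7 to 17.9 TPM for Hsd11b1. Hsd11b2 (ENSMUSG00000031891.5, chromosome 8, 105518755 to 105523988, plus strand) had 2.39 TPM in pup 2, against 1.59 in pup 1, a mean of 1.99 ± 0.566 TPM (SD, n = 2). The log2 ratio of TPM of Hsd11b2 over Hsd11b1 was -3.05 in pup 2, against -3.40 in pup 1, or -3.22 ± 0.25 (SD, n = 2), so Hsd11b1 RNA was 8.26-fold more abundant in pup 2 and 10.5-fold in pup 1. The distance between these genes was many times the spread between the pups.

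None of these 3 genes lay over 2-fold apart between the pups. Hsd11b1 had 826 counts in pup 2, against 869 in pup 1, a log2 ratio of -0.16 with an interval from -0.30 to -0.02, and H6pd had 3163 and 3260 counts, a log2 ratio of -0.13 with an interval from -0.20 to -0.06. By TPM both were higher in pup 2, with log2 ratios of 0.24 for Hsd11b1 and 0.25 for H6pd, and with spike-in scaling both were too; across genes the log2 ratio of TPM ran above that of scaled counts by a median of 0.38. The 137 and 112 counts of Hsd11b2 gave a log2 ratio of 0.21 with an interval from -0.16 to 0.58, so no difference in counts was detectable at this depth, although its TPM intervals (1.99 to 2.78 in pup 2 and 1.30 to 1.88 in pup 1) lay apart. Hsd11b1 is known to be abundant in liver and Hsd11b2 in the kidney tubule, and markers of both organs moved between the pups: the liver markers had a median log2 ratio of -0.75 (8 of 8 higher in pup 1), and the kidney markers went both ways. Of the 5 kidney markers with enough counts, Pax2 (log2 ratio 3.36), Cdh16 (2.103) and Aqp2 (1.53) were higher in pup 2, while Lrp2 (-0.93) and Slc12a1 (-4.38, from 2 and 49 counts) were higher in pup 1. Umod had 3 counts in pup 2 and 0 in pup 1. The part of either organ in these levels was not tested.

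Hsd11b1 RNA came mostly from 1 of its start sites. Of its 7 annotated transcripts, the one that starts at the far upstream site (ENSMUST00000161737.3, start at 193264075) held 89.0% of the gene's TPM in pup 2, against 85.5% in pup 1, or 87.2% ± 2.53 (SD, n = 2). The transcript from the proximal site (ENSMUST00000016338.10, start at 193242629) held 8.43% and 12.2%, or 10.3% ± 2.63 (SD, n = 2). In mice the proximal promoter is known as the one used in liver, and the upstream one as that of lung. The quantifier's intervals lay apart for the 2 transcripts, at 15.2 to 18.6 TPM against 1.01 to 2.47 TPM in pup 2 and at 12.2 to 15.3 TPM against 1.31 to 2.84 TPM in pup 1.

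H6pd also used a pair of start sites. The transcript that begins at 150009023 (ENSMUST00000030830.3) held 69.3% in pup 2 and 76.2% in pup 1, and the one that begins at 150003130 (ENSMUST00000084117.8) held 28.4% and 21.0%. Hsd11b2 has 1 annotated transcript. Around H6pd, 6 genes of glucose 6-phosphate handling and NADPH supply were listed. Of these 5 were higher in pup 2, against 50.2% of the 18670 genes whose mean count reached 10. The median log2 ratio was 0.54 for the 6, against 0.00 for those 18670 genes. The lactonase gene Pgls (249 TPM in pup 2, against 181 in pup 1), the dehydrogenase gene Pgd (117 and 52.2 TPM) and the cytosolic H6pd relative G6pdx (51.4 and 22.4 TPM) belong to the cytosolic pathway. The phosphatase gene G6pc3, which uses up glucose 6-phosphate in the endoplasmic reticulum, had 53.2 and 18.9 TPM, for a log2 ratio of 1.11. Its liver relative G6pc had 3.12 and 4.96 TPM, for a log2 ratio of -1.05. Liver markers ran from -0.92 to -0.61 and leukocyte markers had a median of -0.75, and the part of either in G6pc was not tested. H6pd thus stood below G6pdx in both pups, with TPM ratios of 0.418 in pup 2 and 0.802 in pup 1.

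**Figure D2:**
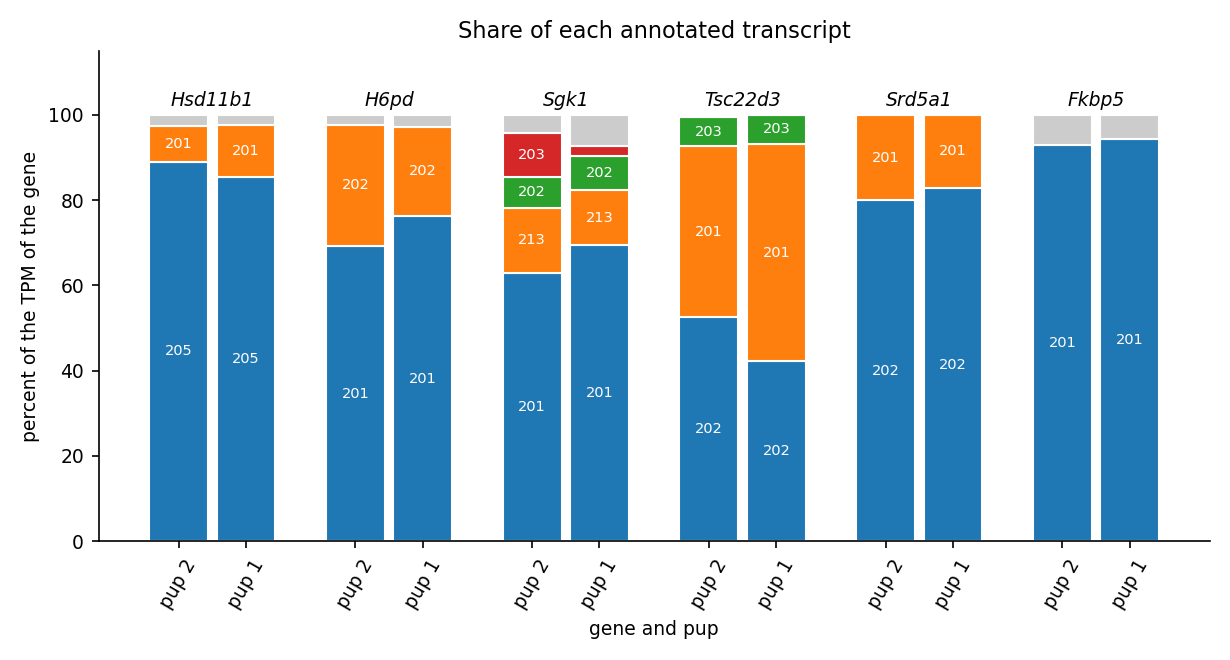
Share of the TPM of a gene (percent, vertical axis) in each annotated transcript for the 6 genes with over 1 transcript, with pup 2 left of pup 1; numbers are the last part of the transcript's GENCODE name, grey is the sum of transcripts with a mean under 5%. The leading transcript is the same in both pups for 5 of the 6 genes and changes in Tsc22d3.

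Srd5a1, a 5α-reductase that starts the breakdown of steroids, was expressed at moderate levels. It (ENSMUSG00000021594.10, chromosome 13, 69573449 to 69611442, minus strand) had 12.9 TPM in pup 2, against 6.18 in pup 1, a mean of 9.55 ± 4.76 TPM (SD, n = 2). Scaled counts gave a log2 ratio of 0.64 (interval 0.49 to 0.80), higher than 87.8% of the genes compared. Its coding transcript (ENSMUST00000091514.5) held 79.9% and 82.8% of the TPM. Gm17108, which shares 476 exon bases with it on the same strand, was at 0.42 TPM in pup 2, against 0.07 in pup 1. Of the other 5α-reductase genes, Srd5a3, which acts in glycosylation, stood above it at 27.8 and 18.2 TPM, and Srd5a2 below it at 8.45 and 3.81 TPM.

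Other genes that inactivate, bind or export steroids divided evenly by sign: 5 of 10 were higher in each pup, and the median log2 ratio was 0.01. The counting intervals of Abcg2, Abcb1a and Serpina6 included 0, so the directions of these genes are not resolved. Of the 10, 3 were over 2-fold apart. Among all genes whose mean count reached 10, 50.2% were higher in pup 2 and 15.8% were over 2-fold apart. The highest of the 10 by mean TPM was Akr1d1, the 5β-reductase known above all from liver, at 128 TPM in pup 2, against 24.4 in pup 1. Its log2 ratio was 2.00 with an interval from 1.94 to 2.06. Higher in pup 2 as well were 6 of 6 cortex markers (median log2 ratio 1.11), 4 of 6 chromaffin markers (0.80), 4 of 4 muscle markers and 3 of 4 fat markers, and 8 of 8 liver markers were higher in pup 1. The part of any of these tissues in the level of Akr1d1 was not tested. The reductase gene Akr1c14 (8.06 TPM in pup 2, against 16.4 in pup 1, log2 ratio -1.41) and the oestrogen sulfotransferase gene Sult1e1 (3.0 and 6.87 TPM, log2 ratio -1.58) were the other members over 2-fold apart. The exporter Abcg2 had 43.6 and 32.2 TPM, which made it the highest of the 10 in pup 1. Serpina6, which encodes the corticosteroid-binding globulin of plasma, was under TPM 1 in both, at 0.49 and 0.46. By TPM, then, Akr1d1 exceeded Srd5a1 in both pups.

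**Figure D3:**
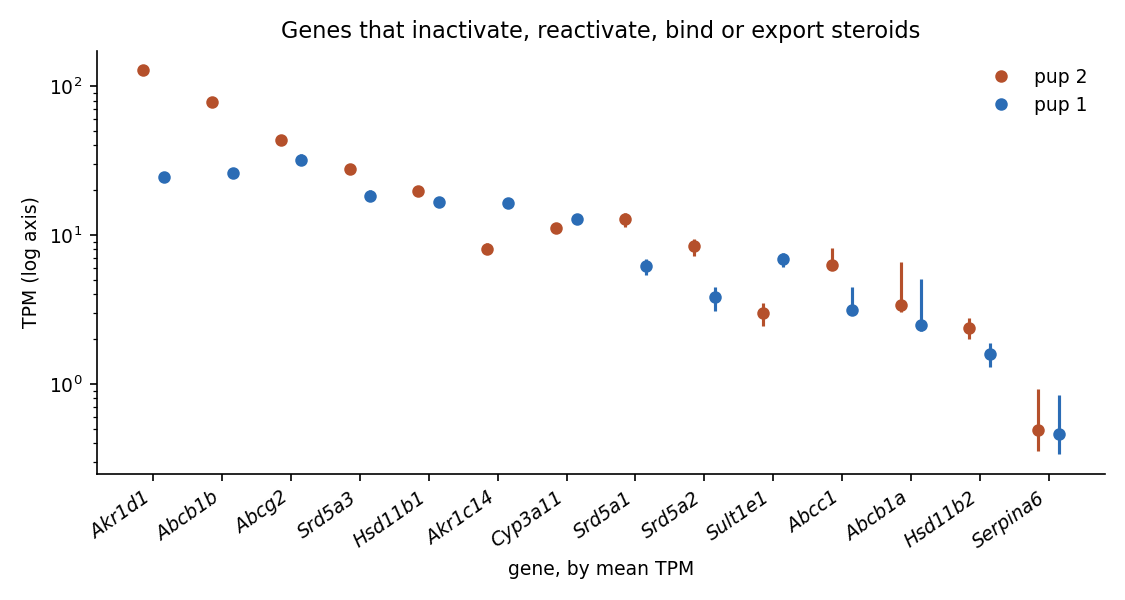
TPM on a log axis for Hsd11b1, Hsd11b2, Srd5a1 and Abcb1b among 10 other genes of steroid inactivation, binding and export, with pup 2 left of pup 1 and bars for the quantifier's interval. By mean TPM Akr1d1 and Abcb1b lead, and both are higher in pup 2, while in pup 1 Abcg2 is highest at 32.2 TPM. Serpina6 lies under TPM 1 in both.

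Abcb1b encodes a P-glycoprotein, a pump of the cell membrane that exports corticosteroids and many drugs and is known from the mouse adrenal cortex. The gene (ENSMUSG00000028970.5, chromosome 5, 8798147 to 8866315, plus strand) had 78.5 TPM in pup 2, against 26.2 in pup 1, a mean of 52.3 ± 37.0 TPM (SD, n = 2). With 10918 and 4484 counts its log2 ratio was 1.20 (interval 1.15 to 1.25), a 2.30-fold difference and higher than 95.8% of the genes compared. Its close paralog Abcb1a, the P-glycoprotein of the blood-brain barrier, had only 3.39 TPM in pup 2, against 2.48 in pup 1, and its log2 ratio of -0.00 had an interval from -0.20 to 0.20. Abcb1b RNA was therefore 23.1-fold above Abcb1a RNA in pup 2 and 10.6-fold in pup 1. Reads can be shared between the paralogs, and the quantifier's interval for Abcb1a was wide, from 3.04 to 6.57 TPM in pup 2 and from 2.25 to 5.06 TPM in pup 1, yet it stayed far under that of Abcb1b (75.6 to 78.5 and 25.1 to 26.6 TPM). An antisense gene, Gm5106, shares 143 exon bases with Abcb1b and had 2.00 and 0.79 TPM. The sources used here do not give the strand setting of the counting, so reads of that stretch cannot be told apart.

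Fkbp5, the immunophilin that lowers the receptor's affinity for hormone and is itself induced by it, stood in the middle of the group. It (ENSMUSG00000024222.12, chromosome 17, 28399094 to 28517527, minus strand) had 24.5 TPM in pup 2, against 15.5 in pup 1, a mean of 20.0 ± 6.37 TPM (SD, n = 2), and scaled counts gave a log2 ratio of 0.27 (interval 0.19 to 0.35). Its relative Fkbp4, which favours receptor activity, stood well above it at 145 and 106 TPM. The log2 ratio of TPM of Fkbp5 over Fkbp4 was -2.56 in pup 2, against -2.77 in pup 1, or -2.67 ± 0.15 (SD, n = 2). Of 6 annotated Fkbp5 transcripts, 1 (ENSMUST00000079413.5, start at 28486149) held 92.9% and 94.4% of the TPM.

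Of 10 genes for the receptors and their chaperones, 7 were higher in pup 2 and 3 lower by scaled counts, and the median log2 ratio was 0.05. None was over 2-fold apart, against 15.8% of all genes whose mean count reached 10, so that a count of 0 in 10 is near the background. The chaperone genes Hspa8 (1319 TPM in pup 2, against 877 in pup 1), Hsp90ab1 (648 and 463 TPM), Hsp90aa1 (367 and 339 TPM) and Ptges3 (241 and 190 TPM) led the list. Nr3c1, the glucocorticoid receptor gene, had 23.4 TPM in pup 2, against 20.0 in pup 1, close to the level of Fkbp5. Nr3c2, the mineralocorticoid receptor gene, had 1.92 and 0.67 TPM. With 113 and 56 counts its log2 ratio was 0.92 (interval 0.45 to 1.42), the highest of the 10. By TPM the log2 ratio of Nr3c2 was 1.52, which is over 2-fold. Its TPM intervals overlapped, however, at 1.56 to 3.37 in pup 2 and 0.547 to 1.62 in pup 1. Nr3c2 and Hsd11b2 both lay under 3 TPM in each pup.

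Tsc22d3, which encodes the anti-inflammatory leucine zipper protein GILZ, had the highest mean of the 10 genes and ran against most of them between the pups. It (ENSMUSG00000031431.9, chromosome X, 140539528 to 140600659, minus strand) had 72.2 TPM in pup 2, against 87.8 in pup 1, a mean of 80.0 ± 11.02 TPM (SD, n = 2). It was the only gene of the 10 with a higher TPM in pup 1. Its 4152 and 6267 counts gave a log2 ratio of -0.68 (interval -0.74 to -0.62), which becomes positive (1.89) with spike-in scaling. GILZ is known from leukocytes, and 4 of the 5 leukocyte markers with enough counts were also higher in pup 1; their median log2 ratio was -0.75, and Ptprc was the exception at 0.26. Over all 6 leukocyte markers summed TPM was 556 in pup 2 and 908 in pup 1, and their part in the level of Tsc22d3 was not tested.

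The leading transcript of Tsc22d3 differed between the pups. ENSMUST00000112995.2 (start at 140542668), annotated without a protein, held 52.5% in pup 2 and 42.2% in pup 1. The protein-coding ENSMUST00000055738.7 (start at 140543187) held 40.1% in pup 2 and 51.0% in pup 1. The first was level between the pups at 37.95 and 37.0 TPM with overlapping intervals. The coding one had 29.0 TPM in pup 2, against 44.8 in pup 1, with intervals of 25.3 to 32.1 and 41.1 to 47.2 TPM that lay apart. A long form from a distant start (ENSMUST00000112996.4) held 6.92% and 6.83%. Among 9932 genes with over 1 transcript and a mean count that reached 100, the leading transcript was the same in both pups for 89.1%.

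Sgk1, a kinase that raises sodium uptake by keeping the epithelial sodium channel at the cell surface, is a rapid target of the receptor. It (ENSMUSG00000019970.11, chromosome 10, 21882184 to 21999903, plus strand) had 67.5 TPM in pup 2, against 26.1 in pup 1, a mean of 46.8 ± 29.3 TPM (SD, n = 2). Its 5136 and 2444 counts gave a log2 ratio of 0.99 (interval 0.92 to 1.06), just inside the 2-fold line, which it passes with DESeq2 size factors, library size alone or TPM. RefSeq lists 6 start sites for it over 112482 bases, and the deposited transcripts near 5 of them were quantified. Most Sgk1 RNA came from the last, start 6: its transcripts within 50 bases of the start held 44.2 TPM in pup 2, against 18.4 in pup 1. The leading transcript alone (ENSMUST00000020145.7) held 62.9% and 69.5% of the gene's TPM, or 66.2% ± 4.65 (SD, n = 2).

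The minor starts of Sgk1 differed unequally between the pups. Start 2 had 10.3 TPM in pup 2, against 3.33 in pup 1, and start 5 had 4.83 and 2.08 TPM. Start 4 had 7.02 TPM in pup 2, against 0.64 in pup 1, with intervals for its transcript (ENSMUST00000100036.5) of 3.95 to 8.92 and 0.000586 to 1.10 TPM. Its share of the gene was 10.4% in pup 2 and 2.45% in pup 1, the widest relative gap of the 4 main Sgk1 transcripts. Start 1 went the other way, at 0.22 and 0.67 TPM.

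**Figure D4:**
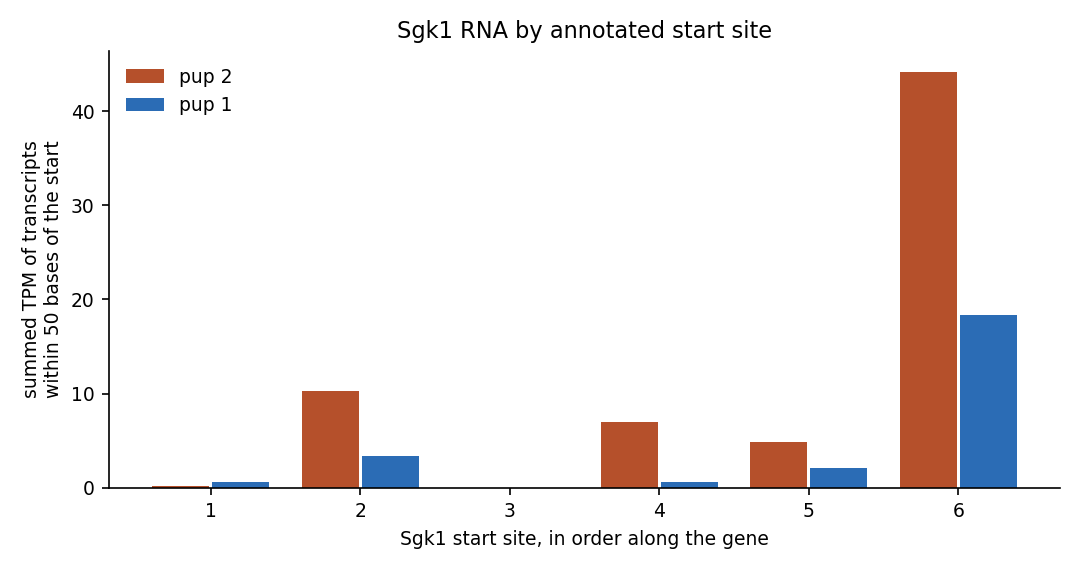
Summed TPM of the deposited transcripts that begin within 50 bases of each RefSeq start site of Sgk1, numbered along the gene, with pup 2 left of pup 1. Start 6 carries most of the RNA in both pups (44.2 and 18.4 TPM), start 4 differs most among the main starts, and no deposited transcript begins near start 3.

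The bases before the 4 starts of Sgk1 with the highest mean TPM are shown because those before start 5 hold a full glucocorticoid response element. The sequences are from RefSeq on GRCm38.p6 (the mm10 build), each the 250 bases before a start site, 5′ to 3′ on the gene's strand. Capitals mark the arm TGTTCT of the response element on either strand and the cAMP response arm TGACG. They cover chr10:21978422-21978671 for start 2, chr10:21991973-21992222 for start 4, chr10:21993640-21993889 for start 5 and chr10:21994416-21994665 for start 6, all on the plus strand.
Sgk1 start 2: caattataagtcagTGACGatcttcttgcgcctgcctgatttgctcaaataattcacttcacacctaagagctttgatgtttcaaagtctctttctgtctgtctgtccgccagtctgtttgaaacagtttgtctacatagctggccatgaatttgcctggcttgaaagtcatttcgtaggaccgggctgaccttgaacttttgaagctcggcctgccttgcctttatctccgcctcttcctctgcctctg
Sgk1 start 4: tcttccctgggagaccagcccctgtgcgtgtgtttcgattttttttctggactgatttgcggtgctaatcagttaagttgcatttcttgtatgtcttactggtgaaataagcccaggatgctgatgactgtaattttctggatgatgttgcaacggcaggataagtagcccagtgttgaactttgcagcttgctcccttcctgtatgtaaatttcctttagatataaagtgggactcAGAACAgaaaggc
Sgk1 start 5: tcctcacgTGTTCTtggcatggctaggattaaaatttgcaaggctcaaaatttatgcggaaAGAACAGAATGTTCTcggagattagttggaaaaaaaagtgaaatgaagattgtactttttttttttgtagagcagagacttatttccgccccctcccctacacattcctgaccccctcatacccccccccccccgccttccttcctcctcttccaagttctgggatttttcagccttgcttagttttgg
Sgk1 start 6: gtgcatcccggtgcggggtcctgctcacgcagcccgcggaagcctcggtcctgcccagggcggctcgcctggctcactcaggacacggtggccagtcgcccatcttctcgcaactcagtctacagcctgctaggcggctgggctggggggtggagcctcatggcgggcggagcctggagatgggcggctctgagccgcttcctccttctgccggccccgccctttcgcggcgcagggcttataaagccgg

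Windows of 300 bases around each start, from 250 before to 50 after, were searched on both strands. An arm inside a full element was also counted as an arm. The full element, 2 such arms facing each other with 3 bases between (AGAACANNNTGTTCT), was found in 3 of 32851 RefSeq windows, or 0.00913%. Among the 3 was start 5 of Sgk1, where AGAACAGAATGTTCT lies from 189 to 175 bases before the start. That places it on chromosome 10 from 21993701 to 21993715, its first base 965 bases before the leading start 6. A glucocorticoid response element at a like distance before the main start is known from rat Sgk1. Start 5 itself gave 7.16% and 7.98% of the gene's TPM. A match is a description of letters and shows neither binding nor use. The share of windows counts exact letters only, so elements with other letters are not in it.

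Windows were found for 8 of the 10 genes, 15 in all. The single arm TGTTCT was in 5 of the 15 windows and in 19% of all windows: 3 belonged to Sgk1, 1 to H6pd and 1 to Tsc22d3. Those of Fkbp5, Klf9, Abcb1b, Srd5a1 and Hsd11b1 held none. Only exact letters inside the windows were searched. Elements with other letters or outside the windows were not, so an absence here does not show that a gene lacks an element. No deposited transcript begins within 50 bases of the only Hsd11b1 window (start at 193242360), which is not that of its leading transcript, nor of the H6pd (150003236) and Tsc22d3 (140600522) starts whose windows hold an arm. The arm TGACG of the cAMP response element was in 3 of the 15 and in 20.8% of all windows, and the full element TGACGTCA was in none of the 15 and in 1.79% of all. Before the leading starts of Fkbp5 (chr17:28486150-28486399, minus strand) and Abcb1b (chr5:8797897-8798146, plus strand) neither arm occurs, and they are shown as the windows of the feedback gene and of the gene furthest apart between the pups. Fkbp5 has 32 CpG pairs in its window and Abcb1b 12, against a median of 7 over all windows.
Fkbp5: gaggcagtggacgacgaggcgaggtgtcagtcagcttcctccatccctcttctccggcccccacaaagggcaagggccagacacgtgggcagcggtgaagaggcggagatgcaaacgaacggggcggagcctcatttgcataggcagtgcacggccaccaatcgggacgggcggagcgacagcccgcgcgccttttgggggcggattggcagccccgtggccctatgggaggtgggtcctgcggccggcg
Abcb1b: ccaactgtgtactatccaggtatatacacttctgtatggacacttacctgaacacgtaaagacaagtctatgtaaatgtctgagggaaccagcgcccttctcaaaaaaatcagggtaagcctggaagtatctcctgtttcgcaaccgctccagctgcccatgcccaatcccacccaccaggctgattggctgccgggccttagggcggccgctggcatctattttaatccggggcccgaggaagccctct

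The transcription factor targets behaved differently from each other. Klf9, a zinc finger repressor that responds to glucocorticoid and thyroid hormone, lies on chromosome 19 (ENSMUSG00000033863.1, 23141226 to 23168134, plus strand). It had 19.0 TPM in pup 2, against 14.4 in pup 1, a mean of 16.7 ± 3.21 TPM (SD, n = 2), and its counts were level with a log2 ratio of 0.01 (interval -0.08 to 0.10). Zbtb16, also called PLZF, is a zinc finger factor with strong glucocorticoid induction in many cell types. It (ENSMUSG00000066687.4, chromosome 9, 48654297 to 48836222, minus strand) had 2.76 TPM in pup 2, against 1.03 in pup 1, a mean of 1.90 ± 1.22 TPM (SD, n = 2). With 453 and 208 counts its log2 ratio was 1.04, but the interval from 0.80 to 1.28 took in values under 2-fold. By mean TPM the 4 target genes spread from the highest level of the group to the lowest, although in pup 2 Abcb1b was highest and Hsd11b2 lowest, and they ran from below 0 to above 1 in log2 ratio.

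Other genes known to respond to glucocorticoids also went in both directions. All 15 reached TPM 1 in both pups, as did 32.9% of all Ensembl genes. Of the 15, 10 were higher in pup 2 and 5 lower, and their median log2 ratio was 0.19. None was over 2-fold apart. Among the 13870 genes at a mean count of 100, which all 15 reach, 51.2% had a log2 ratio above 0. Gaps over 2-fold made up 9.12% there, so 0 in 15 is near the background. The metallothionein gene Mt1 (313 TPM in pup 2, against 190 in pup 1), the glutamine synthetase gene Glul (117 and 91.3 TPM), Cited2 (79.2 and 43.7 TPM) and the NF-κB inhibitor gene Nfkbia (76.0 and 46.4 TPM) were the most abundant. Over all 15, log2 ratios ran from -0.62 to 0.47, against -0.68 to 1.20 for the 10 genes. Whether either span departs from that of other gene sets was not tested. Of 6 sodium transport genes downstream of Sgk1 and the mineralocorticoid receptor, 4 were higher in pup 2 and 1 was over 2-fold apart. Their median log2 ratio was 0.26. Among all genes whose mean count reached 10, 50.2% were higher in pup 2 and 15.8% over 2-fold apart, so these counts are near the background. Atp1b1, a subunit gene of the sodium pump, had 69.2 TPM in pup 2, against 71.5 in pup 1. The channel subunit gene Scnn1g was under TPM 1 in both pups (0.81 and 0.55), and Nedd4l, the ligase that removes the channel, had 1.79 and 2.38 TPM. Scnn1b had 2.13 TPM in pup 2, against 0.39 in pup 1, for a log2 ratio of 2.06, and the kidney markers, some higher in pup 2 and some in pup 1, are given above; the part of kidney RNA was not tested.

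Across the 10 genes, 2 lay over 2-fold apart between the pups, Abcb1b and Zbtb16, both higher in pup 2. Among all genes whose mean count reached 10, 15.8% were over 2-fold apart and 6.03% were over 2-fold higher in pup 2, and among those at 100, which all 10 genes reach, the shares were 9.12% and 2.78%. By sign alone 7 were higher in pup 2 and 3 lower (all 10 higher with spike-in scaling, 9 by TPM), against 51.2% of the 13870 genes at that count, and their median log2 ratio was 0.24 against 0.01. The TPM intervals of the pups were apart for all 10 genes, 9 of them higher in pup 2, while this held for 74% of the genes at that count, and for 60.4% with pup 2 higher. The 4 genes with the highest ratios, Abcb1b, Zbtb16, Sgk1 and Srd5a1, lay from 0.64 to 1.20. Markers of several cell types took such values: log2 ratios ran from 0.63 to 1.31 in the cortex list, from -1.31 to 1.19 in the chromaffin list and from -0.45 to 1.12 in the endothelial list. Muscle and fat markers had medians of 1.78 and 1.19. The liver markers ran from -0.92 to -0.61, a range that holds Tsc22d3 and none of the other 9 genes. The wider ranges of the leukocyte list (-1.35 to 0.26) and the chromaffin list hold Tsc22d3 too. The counting intervals of Hsd11b2 and Klf9 include 0, and those of the other 8 do not. The part of the marker differences in the gaps of the 10 genes was not tested.

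**Figure D5:**
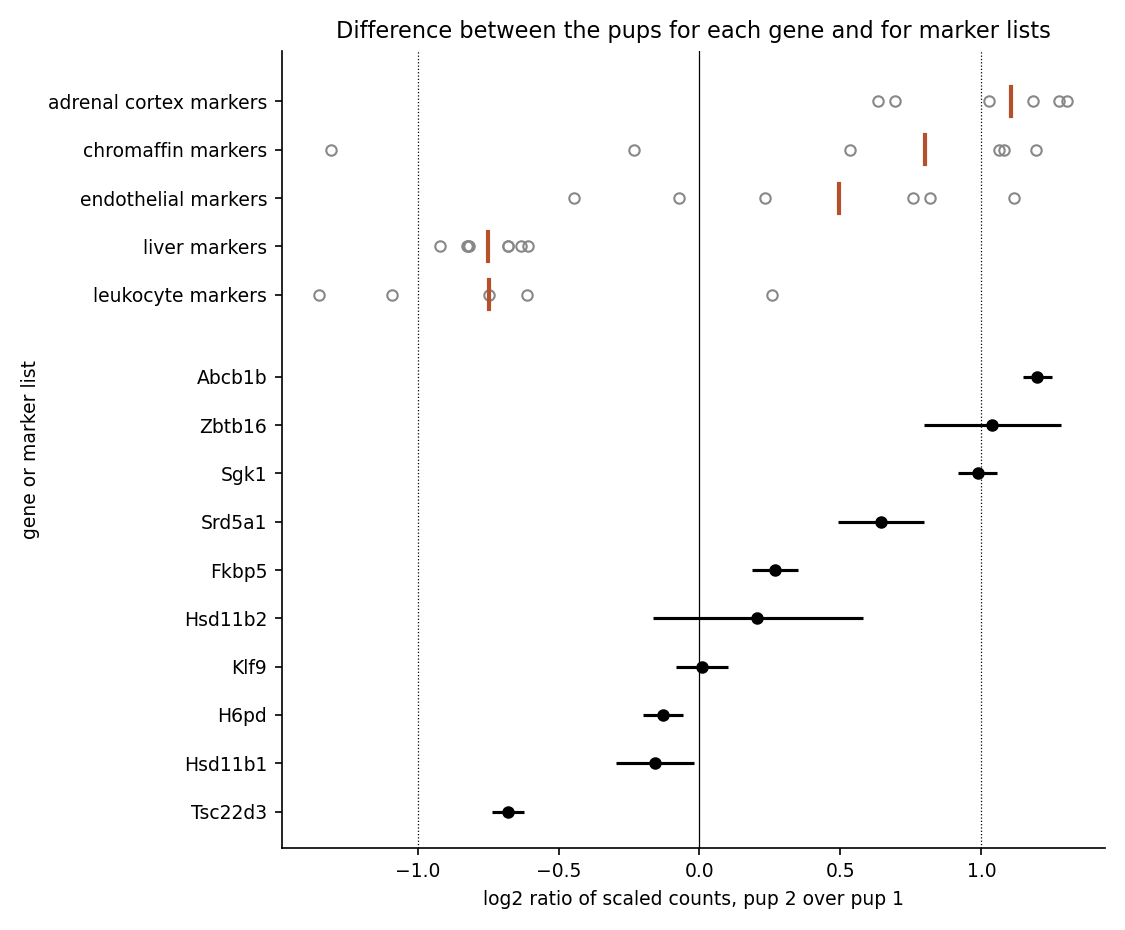
Log2 ratio of scaled counts, pup 2 over pup 1, for the 10 genes (filled points, bars for the 95% counting interval) and for single genes of 5 marker lists (open circles, vertical bar at the median); dotted lines mark 2-fold. Abcb1b, Zbtb16 and Sgk1 lie near 1, as do some markers of the cortex, chromaffin cells and endothelium. Tsc22d3 at -0.68 lies within the ranges of the liver, leukocyte and chromaffin markers. With spike-in scaling all 10 are above 0.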

How the data were processed

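Gene and transcript tables of 2 libraries were used, 1 per pup, grouped by the labels, which give the pup number. Per the labels, each library started from 10 ng of total RNA and carried spike-ins. The authors deposited expected counts (estimated counts, rounded here) and TPM, whose total in a file is fixed and includes the spike-ins. FPKM, each transcript's percent of its gene and posterior mean values are also deposited, per the file headers. The deposited bounds of the TPM interval and the posterior standard deviation are given by the quantifier as a score without a stated level. The text deposited with each library names mm10 and GENCODE M4. Aligner, quantifier and strand setting: not given in the sources used here.

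Rows with a number as name (39 counts in pup 2, against 11 in pup 1) and 97 spike-ins (0.00250% and 0.0138%) were left out of library sizes. GENCODE M21, also mm10, supplied symbols and coordinates, and 42462 of 43346 genes had a symbol. Ratios are pup 2 over pup 1 on the log2 scale, from TMM-scaled counts (edgeR 4.0.16 under R 4.3.3) with 0.5 added, where the mean count reached 10. Folds of counts have nothing added. Intervals are exact binomial at 95%. Without molecular identifiers, reads are not independent molecules, so intervals leave out every error but counting. The libraries are labelled as biological replicates from separate pups, but share a pregnant-animal number and a donor entry, so how independent they are is unclear, and each SD (n = 2) is only the spread of these libraries. The scaling and the log2 ratio were tested on simulated data with known folds, and the other steps were not. Alternatives used DESeq2 1.42.0, and the rest ran in scipy 1.17.1, pandas 2.3.3 and numpy 2.4.6 on python 3.11.15.

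The members, lists and motifs were chosen with earlier results of these data known. Named genes are all 10, then of each list the 4 highest, up to 3 under TPM 1 in both pups and any over 2-fold apart. One gene that this rule names is not reported here. Nr3c1, Nr3c2, Fkbp4, Abcb1a, Srd5a2 and the single markers Aqp2, Cdh16, Pax2, Lrp2, Slc12a1, Umod and Ptprc were chosen after their values were seen. Marker lists are given as sums and medians, with single genes only where a result touches them.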

Additional observations from a re-analysis of the deposited data

How the results depend on the processing

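The count of genes over 2-fold apart was 2, and stayed 2 with posterior mean counts, a pseudocount of 5, no minimum count, a minimum of 100, or a trend with gene length and GC content removed. It was 3 with DESeq2 size factors or library size alone, where Sgk1 passed the line, 4 by ratios of TPM, where Srd5a1 passed too, 5 at a 1.5-fold cutoff and 10 with spike-in scaling. Spike-in scaling puts the median log2 ratio over all genes at 2.56 and all 10 genes higher in pup 2 (median 2.80), so directions here are relative to the bulk of genes. By ratios of TPM 9 were higher in pup 2, among them Hsd11b1 (0.24) and H6pd (0.25). With the trend removed Klf9 stood at -0.06. The log2 ratio of Hsd11b2 over Hsd11b1 was -2.77 from counts with no length correction, whose construction drops the length term. Leaving out a pup gave -3.40 to -3.05 for it, 16.1 to 20.6 TPM for the median level and 74.6% to 79.5% for the median share of the leading transcript. The number of genes at a minimum level stayed 10, or 8 at TPM 5. No paired analysis was possible because there is 1 group. Counting error was widest for Hsd11b2 and Zbtb16. With 2 libraries in 1 group, no difference between the pups has a test against biological spread.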
